A study of Mus musculus with 4 samples.

Results

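The Argonaute family and the microRNA processing enzymes were followed in mouse testis through 10 genes of the 22808 in the RNA-seq table. The members were fixed by name and found by Ensembl identifier: Piwil1, Piwil2 and Piwil4 of the PIWI clade, Ago1, Ago2, Ago3 and Ago4 of the AGO clade, and Drosha, Dgcr8 and Dicer1 of microRNA processing. Their RNA was measured in 1 library of Piwil1-/- testis and 1 library of Piwil1+/- testis, both from animals at postnatal day 23. Small RNAs recovered with the PIWIL1 protein came from adult wild-type C57BL/6J testis at 10 weeks, in 2 replicate immunoprecipitations. The comparison group carries 1 mutant Piwil1 allele and is not wild type. No source used here states how the allele was made, the strain of the mutants or whether animals were pooled. The library sizes that the values imply were 100254357 reads for Piwil1-/- and 104014686 reads for Piwil1+/-. Because each genotype has a single library, no difference could be checked against replicates and no test was made. All counting intervals are at 95% and take in the error of counting reads, not the spread between animals. They rest on the smallest read numbers that fit the values, so they can be too wide for counting error.

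Argonaute proteins hold a small RNA and use it as a guide to matching transcripts. The AGO clade carries microRNAs, which are cut from hairpins by Drosha with its partner Dgcr8 in the nucleus and by Dicer1 in the cytoplasm. The PIWI clade is largely restricted to the germ line and carries PIWI-interacting RNAs (piRNAs), which are made without Dicer1. In the mouse, PIWIL1 (MIWI) acts in pachytene spermatocytes and round spermatids, PIWIL2 (MILI) from gonocytes to spermatids, and PIWIL4 (MIWI2) in the nuclei of fetal gonocytes, where it directs the silencing of transposons.

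In Piwil1-/- testis the transcript of the targeted gene was listed at 0, Piwil2 was 1.39-fold higher than in Piwil1+/- testis, and the 4 AGO genes and 3 microRNA processing genes had folds of 1.002 to 1.29. PIWI-clade transcripts outweighed AGO-clade transcripts in both libraries, by 3.58-fold in Piwil1-/- and 4.66-fold in Piwil1+/-. Levels are in RPKM, read numbers divided by gene length and library size, so that genes can be compared per length. How the gene lengths were defined is not stated, so ratios between genes are uncertain to that extent.

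**Figure D1:**
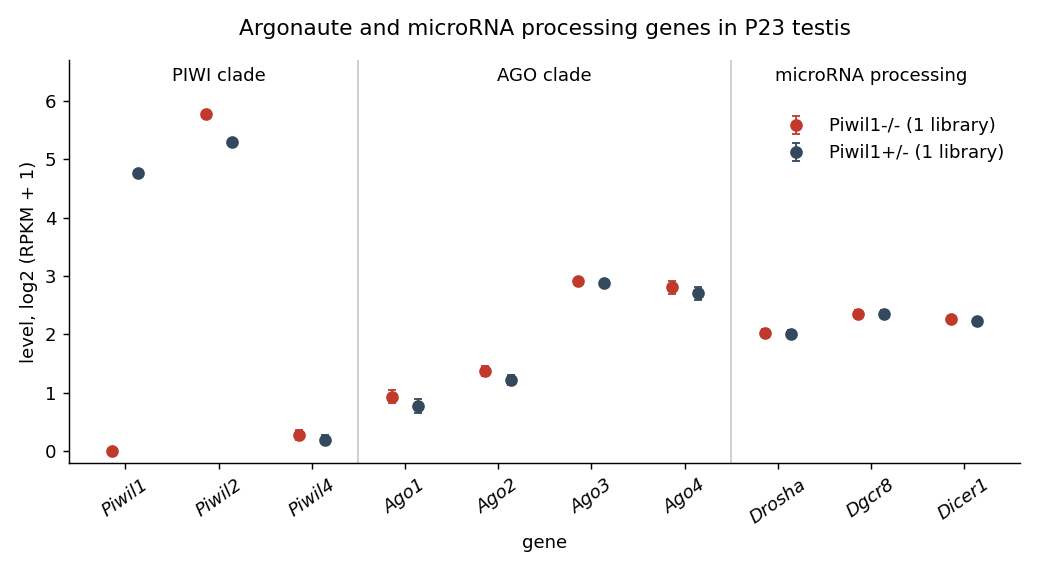
Level of each of the 10 genes as log2 (RPKM + 1) on the vertical axis, in 1 library of Piwil1-/- (red, left of each pair) and 1 library of Piwil1+/- (dark blue) testis at postnatal day 23. Bars are 95% counting intervals, mostly smaller than the points. Piwil1 is at 0 in Piwil1-/- and Piwil2 is the highest gene in both libraries.

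Piwil1 (ENSMUSG00000029423, chromosome 5, 128736071 to 128755474, mm10) was listed at 0 in Piwil1-/- testis, against 26.2 RPKM in Piwil1+/- testis. The Piwil1+/- value fits 17952 reads over a gene length of 6577 bases, with a counting interval of 25.9 to 26.6 RPKM. In Piwil1+/- testis 92.9% of the genes in the table had a lower level. The zero goes with the label of the library. A listed 0 is not particular to Piwil1: it ranked 17291 of the 22808 genes in Piwil1-/-, a place shared by every gene listed at 0. None of the 12 housekeeping genes examined was at 0 in either library, which is no check on the Piwil1 value. No fold is given against a listed 0.

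Piwil2 (ENSMUSG00000033644, chromosome 14, 70372477 to 70436898) encodes the PIWI protein that is present earlier than PIWIL1 in spermatogenesis and persists beside it. It was at 53.6 RPKM in Piwil1-/- testis, against 38.6 RPKM in Piwil1+/- testis. The values fit at least 15679 reads in Piwil1-/- and 11696 in Piwil1+/-, which gives a counting interval of 1.36 to 1.42 for the 1.39-fold difference. On the scale of log2 (RPKM + 1), which is used for all log2 ratios below and understates the change of low genes, the difference was 0.47. Of the 9951 genes that reached 1 RPKM in at least 1 library, called the genes tested from here on, 231 had a ratio at or above that of Piwil2, or 2.32%.

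Piwil4 (ENSMUSG00000036912, chromosome 9, 14701776 to 14740672) was near the floor in both genotypes. Its level was 0.204 RPKM in Piwil1-/- testis, against 0.141 RPKM in Piwil1+/- testis, from at least 39 reads in Piwil1-/- and 28 in Piwil1+/-. The fold of 1.45 had a counting interval of 0.867 to 2.44, which includes 1 at these minimum read numbers. Piwil2 exceeded Piwil4 by 262-fold in Piwil1-/- and by 273-fold in Piwil1+/-.

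The AGO clade was led by Ago3 and Ago4, not by Ago2, the member of the clade that can cut its target and serves most tissues. Ago3 (ENSMUSG00000028842) was at 6.54 RPKM in Piwil1-/- testis, against 6.37 RPKM in Piwil1+/- testis. Ago4 (ENSMUSG00000042500), whose protein has been located on the silenced sex chromosomes of mouse spermatocytes, was at 6.01 RPKM in Piwil1-/- testis, against 5.51 RPKM in Piwil1+/- testis. Both genes together made up 83.5% of the summed AGO-clade level in Piwil1-/- and 85.4% in Piwil1+/-.

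Ago2 (ENSMUSG00000036698, chromosome 15, 73101625 to 73184947) was at 1.58 RPKM in Piwil1-/- testis, against 1.34 RPKM in Piwil1+/- testis. Ago3 exceeded it by 4.14-fold in Piwil1-/- and 4.77-fold in Piwil1+/-. Ago1 (ENSMUSG00000041530) was the lowest member of the clade, at 0.903 RPKM in Piwil1-/- and 0.703 RPKM in Piwil1+/- testis. These values rest on at least 409 reads in Piwil1-/- and 359 in Piwil1+/- for Ago2, and on 140 in Piwil1-/- and 113 in Piwil1+/- for Ago1.

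Ago3, Ago1 and Ago4 lie side by side on chromosome 4, within 206593 bases. Ago3 spans 126326994 to 126431670, Ago1 126435012 to 126468707 and Ago4 126489487 to 126533586, with 3341 bases between Ago3 and Ago1 and 20779 between Ago1 and Ago4. The table of RefSeq genes places no other gene entirely between the outer pair. Levels within the cluster were uneven: Ago1, the middle gene, was below both neighbours in both libraries. Ago3 exceeded it by 7.24-fold in Piwil1-/- and 9.07-fold in Piwil1+/-, and Ago4 exceeded it by 6.65-fold in Piwil1-/- and 7.84-fold in Piwil1+/-. How reads that match several AGO paralogs were assigned is not stated, so the split of levels between close paralogs is uncertain to that extent.

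The microRNA processing genes were at moderate and similar levels. Dgcr8 (ENSMUSG00000022718, chromosome 16, 18253948 to 18289251), which binds the hairpin for Drosha, was at 4.10 RPKM in Piwil1-/- and 4.09 RPKM in Piwil1+/- testis. Drosha (ENSMUSG00000022191, chromosome 15, 12824804 to 12935291), the nuclease of the pair, was at 3.08 RPKM in Piwil1-/- and 3.02 RPKM in Piwil1+/- testis. Dgcr8 thus exceeded Drosha by 1.33-fold in Piwil1-/- and 1.35-fold in Piwil1+/-. Dicer1 (ENSMUSG00000041415, chromosome 12, 104687740 to 104751968), which releases the microRNA from the trimmed hairpin, was at 3.82 RPKM in Piwil1-/- and 3.69 RPKM in Piwil1+/- testis.

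Ordered by level, the genes ran Piwil2, Ago3, Ago4, Dgcr8, Dicer1, Drosha, Ago2, Ago1, Piwil4 in both libraries, with Piwil1 second in Piwil1+/- and last in Piwil1-/-. At the minimum read numbers, the counting intervals of Dgcr8 and Dicer1 overlapped in both libraries. Those of Ago3 and Ago4 overlapped in Piwil1-/- but not in Piwil1+/-. No other neighbours in the order had overlapping intervals. In Piwil1-/- testis, 97.1% of the genes in the table were below Piwil2, 78.6% below Ago3, 73.3% below Dgcr8 and 62.4% below Ago2.

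The difference between genotypes was then set against that of all genes tested. Of the 10 genes, 8 reached an RPKM of 1 in either library; Ago1 and Piwil4 did not. Of these 8, Piwil1 alone was at least 2-fold lower in Piwil1-/-, where 1.96% of the genes tested were, and Piwil1 is the gene the mutation targets. None of the 8 was at least 2-fold higher, where 0.231% of the genes tested were. At a smaller threshold, a log2 ratio of 0.32, Piwil2 was the 1 gene higher (5.81% of the genes tested) and Piwil1 the 1 gene lower (10.3% of the genes tested). The median log2 ratio of all genes tested was 0.0055.

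**Figure D2:**
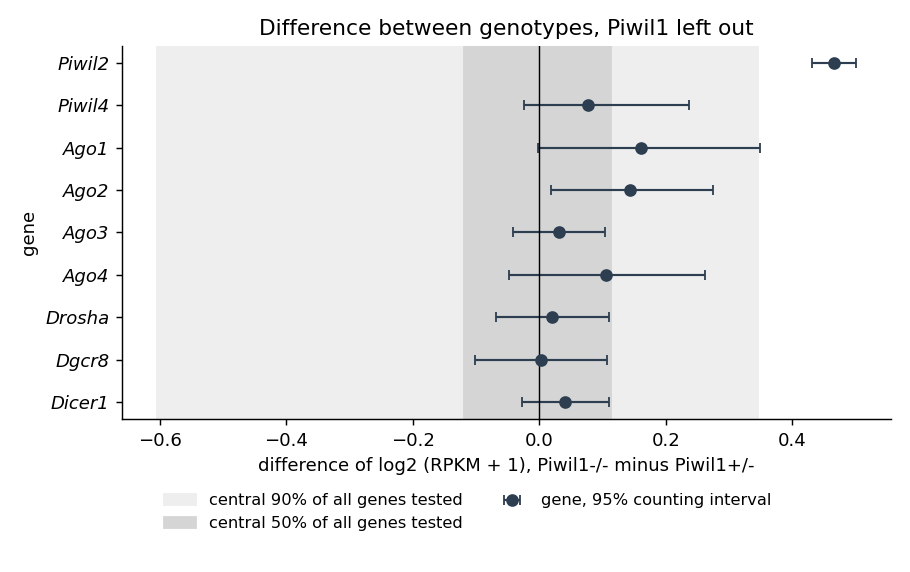
Difference of log2 (RPKM + 1), Piwil1-/- minus Piwil1+/- testis, for the 9 genes other than Piwil1 (points), with 95% counting intervals. The grey bands hold the central 90% and 50% of the 9951 genes tested. Piwil2, at 0.47, lies right of both bands, and the other 8 points lie within the wider one.

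Besides Piwil1, all 9 genes had a ratio above 0, among them 7 of the 8 genes tested, where 51.2% of all genes tested lay above 0. At the minimum read numbers, the counting interval of the fold held 1 for 7 of the 9. Larger read numbers would narrow the intervals, so the counts of intervals that hold 1 or lie above it could change. The smallest length that fitted was 862 bases for Ago4 and 2583 bases for Ago2, so a split between Ago2 and Ago4 may not hold. The counting interval of the fold lay above 1 for 2 of the 7 genes tested that have one, Piwil2 and Ago2, where 27.4% of all such genes did, and below 1 for none of them, where 26.8% of all such genes did. Ago2 had a fold of 1.18 (1.02 to 1.37). Ago1 had one of 1.29 (0.996 to 1.66), Ago4 one of 1.09 (0.962 to 1.24) and Ago3 one of 1.03 (0.968 to 1.09). The 3 processing genes lay closest to no difference, with folds of 1.04 (0.977 to 1.10) for Dicer1, 1.02 (0.938 to 1.11) for Drosha and 1.002 (0.916 to 1.10) for Dgcr8. The log2 ratio of Dgcr8, 0.0021, passed below 0 when the libraries were centred on their median gene.

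Between the clades, the totals differed in opposite directions. The summed PIWI-clade level was 53.8 RPKM in Piwil1-/- testis, against 64.9 RPKM in Piwil1+/- testis. The summed AGO-clade level was 15.03 RPKM in Piwil1-/- testis, against 13.9 RPKM in Piwil1+/- testis. PIWI genes therefore made up 78.2% of all Argonaute-family RPKM in Piwil1-/- and 82.3% in Piwil1+/-. Without Piwil1 the order of the genotypes turns round: the ratio of PIWI to AGO was still 3.58 in Piwil1-/- but 2.78 in Piwil1+/-. Piwil2 supplied 99.6% of the PIWI-clade level in Piwil1-/- and 59.4% in Piwil1+/-, where Piwil1 supplied 40.4%.

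**Figure D3:**
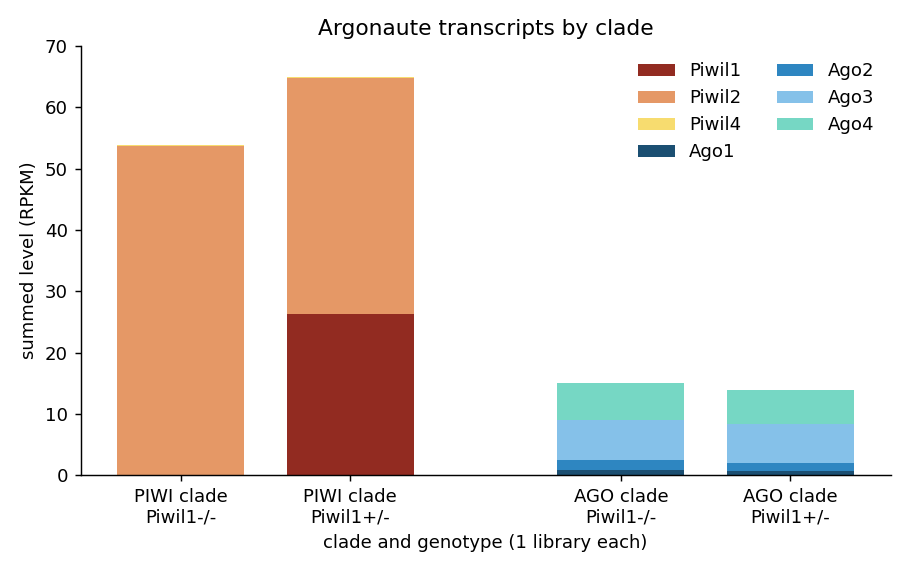
Summed level in RPKM (vertical axis, from 0) of the PIWI-clade and AGO-clade genes, stacked by gene, in Piwil1-/- (left of each pair) and Piwil1+/- testis, 1 library each. Piwil2 makes up nearly all of the PIWI bar in Piwil1-/-; Piwil4, at 0.204 RPKM in Piwil1-/- and 0.141 RPKM in Piwil1+/-, is too thin to see.

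Markers of late germ cells differed with the genotype. The 11 genes tested of the list named for elongating spermatids were all below 0, at a median log2 ratio of -1.34. The 14 genes of the list summed to 101 RPKM in Piwil1-/- and 269 RPKM in Piwil1+/-. Highest of them in Piwil1+/- were Akap4, Akap3 and Oaz3, at 70.5, 69.1 and 44.3 RPKM. In Piwil1-/- these 3 were at 25.8, 36.9 and 16.9 RPKM. Whether elongating spermatids were present at postnatal day 23 was not tested. Prm1, Prm2 and Tnp1 were listed at 0 in Piwil1-/- and were low in Piwil1+/-, at 0.0616, 1.42 and 0.458 RPKM. These values fit as few as 1, 4 and 1 reads in Piwil1+/-. Such read numbers are minima, so they cannot show whether the zeros mark a difference. Prm2 is among the 11 genes tested, and the size of its log2 ratio depends on the pseudocount. Genes of round spermatids had a median of -0.54, with 3 of 13 above 0, while their sum was 484 RPKM in Piwil1-/- and 473 RPKM in Piwil1+/-. The higher sum rests on Tex101, at 154 RPKM in Piwil1-/- and 62.3 RPKM in Piwil1+/-; without it the list summed to 330.1 RPKM in Piwil1-/- and 411 RPKM in Piwil1+/-. Genes of meiotic prophase, the stage in which Piwil2 and Ago4 proteins are known from the mouse, had a median of 0.10, with 12 of 15 above 0, none past a log2 ratio of 0.32 in either direction, and sums of 1149 RPKM in Piwil1-/- and 1076 RPKM in Piwil1+/-. Spermatogonial genes summed to 16.7 RPKM in both, with 2 of the 4 tested above 0 and Id4 near 0 throughout, with 0.0821 RPKM in Piwil1-/- testis against a listed 0 in Piwil1+/- testis. The part of these cells in the Piwil2 difference was not tested. In bulk testis RNA, fewer cells of a type and less RNA per cell cannot be told apart.

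Somatic cells also express AGO and microRNA processing genes. Sertoli cell markers had a median of 0.10 over 7 genes tested, with 6 above 0 and sums of 167 RPKM in Piwil1-/- and 162 RPKM in Piwil1+/-. Leydig cell markers had a median of -0.16 over 5 genes, with 1 above 0 and sums of 124 RPKM in Piwil1-/- and 150 RPKM in Piwil1+/-; Insl3 had 0.0541 RPKM in Piwil1-/- testis against a listed 0 in Piwil1+/- testis. Peritubular markers had a median of 0.01 over 5 genes, with 3 above 0, and sums of 39.9 RPKM in Piwil1-/- and 52.0 RPKM in Piwil1+/-. The lower sum rests on Actg2, a smooth muscle actin and the 1 gene of the list past 2-fold, at 3.04 RPKM in Piwil1-/- and 17.6 RPKM in Piwil1+/- (log2 ratio -2.20). Without Actg2 the list summed to 36.8 RPKM in Piwil1-/- and 34.4 RPKM in Piwil1+/-. Leukocyte markers had 1 of 3 genes above 0, with sums of 10.02 RPKM in Piwil1-/- and 8.46 RPKM in Piwil1+/-. That 1 gene was Lyz2, at 4.80 RPKM in Piwil1-/- and 3.42 RPKM in Piwil1+/- (log2 ratio 0.39). The 1 endothelial marker tested was at -0.02, with sums over the list of 4.25 RPKM in Piwil1-/- and 4.77 RPKM in Piwil1+/-. Their part in the AGO levels was not tested.

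Partners of the microRNA machinery showed small differences in both directions. Of 18 genes for hairpin processing, export and Argonaute loading, 17 were tested; 10 lay above 0, none passed 0.32 in either direction and the median log2 ratio was 0.04. Highest were Erh, a partner of Dgcr8, at 0.26, Srrt, which links the cap-binding complex to microRNA processing, at 0.18, and Tarbp2, the Dicer1 partner, at 0.14. Lowest were the splicing factor Srsf3 at -0.23, Safb, a nuclear RNA-binding protein, at -0.14, and Ddx17, a helicase of the Microprocessor, at -0.11. Erh was at 2.70 RPKM in Piwil1-/- and 2.10 RPKM in Piwil1+/-, a fold of 1.29. Its counting interval of 0.872 to 1.91 includes 1 at the minimum read numbers. Lin28a, which blocks let-7 maturation, was under the limit of 1 RPKM, at 0.148 RPKM in Piwil1-/- and 0.171 RPKM in Piwil1+/-.

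Genes that carry out silencing by AGO proteins were likewise near equal. All 25 were tested, 10 lay above 0, where 51.2% of all genes tested did, and the median was -0.04. Past 0.32 there was 1 gene in each direction, where 5.81% of all genes tested were higher and 10.3% lower. Cnot8, a deadenylase subunit, was the 1 gene above 0.32, at 11.1 RPKM in Piwil1-/- and 8.27 RPKM in Piwil1+/- (log2 ratio 0.39). Edc3, an enhancer of decapping, was the 1 gene below -0.32, at 3.01 RPKM in Piwil1-/- and 4.09 RPKM in Piwil1+/- (-0.34). The exonuclease Xrn1 was at 0.24 and the decapping enzyme Dcp2 at 0.23. Cnot6, another deadenylase, was at -0.30 and Tnrc6b, 1 of the 3 GW182 proteins that AGO proteins bind, at -0.24. The other GW182 genes lay above 0, Tnrc6a at 0.05 and Tnrc6c at 0.16.

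Among partners of the PIWI proteins, 2 of the 21 genes tested passed 0.32, both higher in Piwil1-/-, where 5.81% of all genes tested were higher and 10.3% lower. The list has 22 genes; 16 of those tested lay above 0 and the median was 0.05, beside 51.2% and 0.0055 for all genes tested. Tdrd1, a tudor protein that binds PIWIL2, was the 1 gene past 2-fold (0.231% of all genes tested were higher by as much), at 123 RPKM in Piwil1-/- and 45.7 RPKM in Piwil1+/- (log2 ratio 1.41). Tdrd12, a tudor domain helicase, was at 62.04 RPKM in Piwil1-/- and 43.6 RPKM in Piwil1+/- (0.50), a fold of 1.42 beside the 1.39 of Piwil2. Henmt1, which methylates the 3′ end of piRNAs, followed at 0.31. Lowest were Kif17, a kinesin, at -0.32, just inside the threshold, Gtsf1, a PIWI cofactor, at -0.28, and Prmt5, which methylates PIWI arginines, at -0.09. Mybl1, the activator of pachytene piRNA genes known as A-MYB, was at 40.3 RPKM in Piwil1-/- and 36.7 RPKM in Piwil1+/- (0.13).

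**Figure D4:**
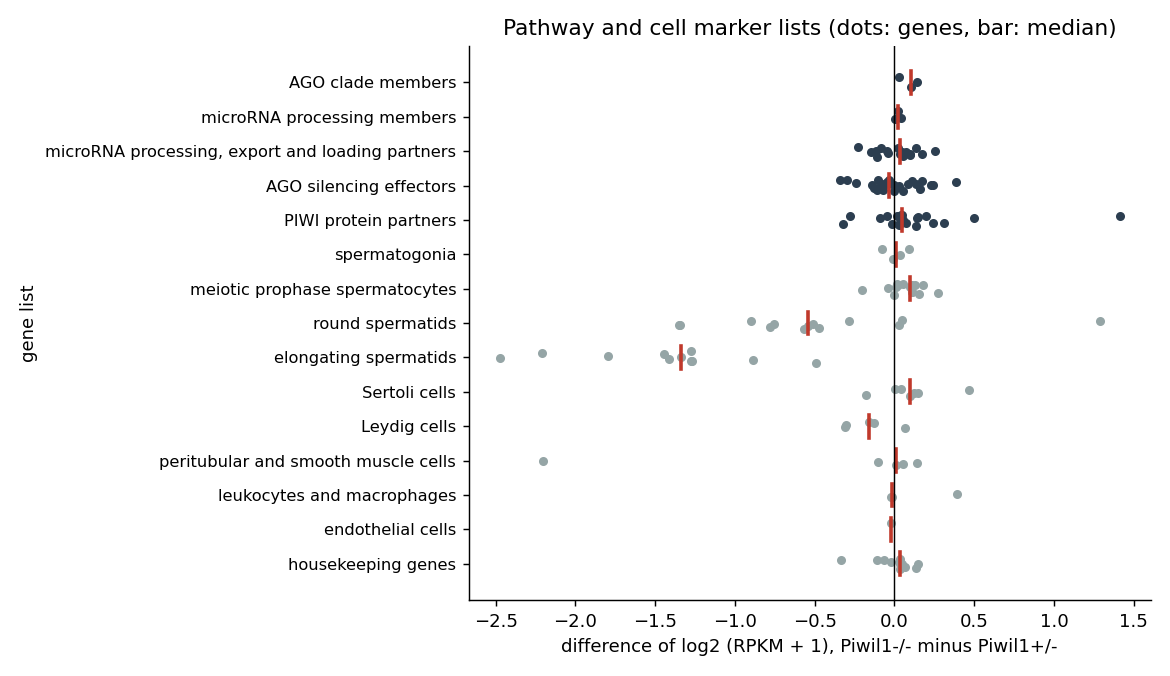
Difference of log2 (RPKM + 1), Piwil1-/- minus Piwil1+/- testis, of each gene tested (dots), with the median of each list (red bar). Lists of the Argonaute and PIWI pathways are dark, cell markers and housekeeping genes grey. The pathway medians lie between -0.04 and 0.11, against -1.34 for the list named for elongating spermatids.

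What the PIWIL1 protein carried gives a readout that does not rest on these RNA levels. Its small RNAs were matched to the 1674 distinct mature microRNA sequences of RefSeq, the cargo of the AGO clade. Inserts identical to a mature microRNA made up 0.00279% of insert reads in replicate 1, or 132 of 4722785 reads (0.00234% to 0.00331%, exact binomial). In replicate 2 they made up 0.00299%, or 189 of 6322998 reads (0.00258% to 0.00345%). In comparison, inserts of 29 to 31 nt, the piRNA length, made up 74.3% ± 4.74 (SD, n = 2). Of the microRNA sequences, 21 were seen at all, 18 in replicate 1 and 7 in replicate 2. Most of the exact reads, 111 and 179, came from miR-468-5p. No control immunoprecipitation was analysed here, and the RNA was selected by size on a gel, so these shares describe what was recovered and not an enrichment.

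The sequences are given because their ends decide what counts as a match. The first pair are the microRNAs with the most matching reads, and the second pair are widely expressed microRNAs for contrast. All are mature sequences from RefSeq (GRCm38.p6) with the seed, bases 2 to 8, in capitals:
miR-468-5p, chr6:81896629-81896655, minus strand: gACUGAUGuacugauaagaaacucagu
miR-7210-5p, chr14:24088877-24088899, plus strand: uAACAUUGuagacaggcacaaag
miR-26a-5p, chr9:119031811-119031832, plus strand: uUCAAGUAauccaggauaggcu
miR-21a-5p, chr11:86584120-86584141, minus strand: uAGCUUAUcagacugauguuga
None of the 4 shares its seed with another.

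The commonest inserts that begin like the first pair are shown next, with T for U and with the bases shared with the mature microRNA in capitals. Both lie within the RefSeq hairpin of the microRNA:
29-nt insert, chr6:81896627-81896655: GACTGATGTACTGATAAGAAACTCAGTgt
21-nt insert, chr14:24088877-24088897: TAACATTGTAGACAGGCACAA
The 29-nt insert, with 2832 reads in replicate 1 and 3043 in replicate 2, runs past the annotated 3′ end of miR-468-5p. The 21-nt insert, with 1582 and 1692 reads, stops short of the 3′ end of miR-7210-5p.

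Matching the first 18 nt of each microRNA, which allows any 3′ end, raised the share to 0.209% ± 0.0106 of insert reads (n = 2). Of these reads, 92.8% in each replicate began like miR-468-5p or miR-7210-5p. Inserts that began like miR-468-5p were 26 nt or longer in 99.03% ± 0.391 of reads, and those of 29 to 31 nt alone made up 93.3% ± 0.514. Inserts that began like miR-7210-5p had 2 lengths, with 49.6% ± 7.20 at 21 nt and 44.6% ± 7.15 at 29 to 31 nt. Of inserts that began like any other microRNA, 91.9% ± 5.13 were also 26 nt or longer. For miR-26a-5p 4 and 7 reads began alike, and 1 and 2 of them were the exact microRNA; for miR-21a-5p there were 14 and 13, with 1 and 0 exact. Inserts that began like a let-7 microRNA numbered 22 in replicate 1 and 0 in replicate 2, where 0 reads allow a share of up to 4.74e-05%, taking 3 reads as the limit (5.83e-05% by the exact binomial interval).

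**Figure D5:**
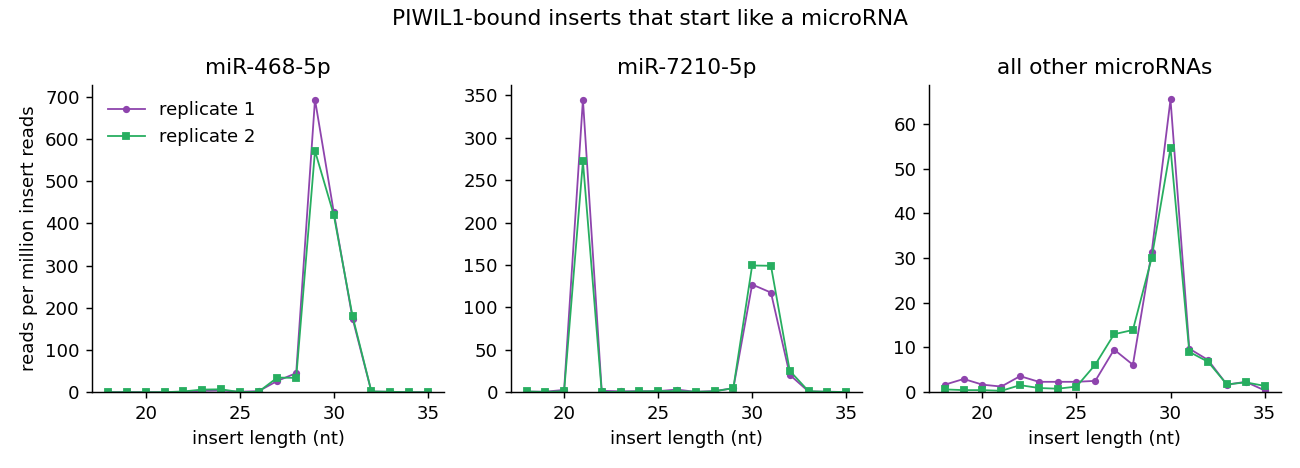
Length in nt (horizontal axis) of PIWIL1-bound inserts that start with the first 18 nt of a mature microRNA, as reads for every 1000000 insert reads, in replicates 1 (purple circles) and 2 (green squares) from adult wild-type testis. The vertical scales differ between panels. Inserts that begin like miR-468-5p peak at 29 nt, those like miR-7210-5p at 21 nt and again at 30 to 31 nt, and those like all other microRNAs at 30 nt.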

How the data were processed

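The authors deposited RNA-seq levels as RPKM for 22808 identifiers, 1 column per genotype, and small RNA data as read counts per distinct read, per the file headers. Testis RNA was rRNA-depleted and made into strand-specific libraries, and small RNAs were cut from a gel, per the labels' protocols. The submitters' processing notes name Bowtie, STAR and the mm10 build; no source used here gives their roles, settings, the read counter, the annotation or the strand setting. Symbols matched 22444 identifiers; coordinates are RefSeq spans on GRCm38.p6. Log2 ratios use a pseudocount of 1 RPKM, and genes tested reach 1 RPKM in at least 1 library.

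An RPKM is a whole read number over a gene length and a library total. The totals were read from the values, and lengths anchored on short genes whose length equalled the RefSeq span. This held for 25 of the 534 short genes tried. For each gene, the smallest length up to 30000 that gave whole reads was taken where fewer than 0.05 chance fits were expected. That rule gave reads for 99.6% of 16558 genes above 0 in both libraries. Read numbers are minima, so intervals (exact binomial for folds, Poisson for levels) are at most too wide for counting error, while PCR copies make them too narrow. The lengths were multiples of 3 in 63.8% of 12082 genes, so many may be coding lengths without UTRs. The steps were tested on simulated data, in which a random part of the genes had their true length as the span. Every span given there was thus true, unlike in the real data, so the simulation does not test how well the anchor holds here. Small RNA inserts end before an exact match to the first 10 adapter bases (4836797 and 6408274 reads; 4722785 and 6322998 with an insert).

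Members, lists and tests were chosen with earlier results of these data known. All members are named; in each pathway list, genes past 2-fold and the 3 highest and 3 lowest ratios are named, and Lin28a, Mybl1, Tnrc6a and Tnrc6c were added after their values were seen. Marker genes are named where they were listed at 0. Tex101, Actg2, Trf, Lyz2, Akap3, Akap4 and Oaz3 were added after their values were seen. Analyses used Python 3.11.15, numpy 2.4.6, pandas 2.3.3, scipy 1.17.1 and matplotlib 3.10.9.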

Additional observations from a re-analysis of the deposited data

How the results depend on the processing

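No paired analysis was possible because each genotype has 1 library; for the same reason no replicate could be left out of the genotype comparison. A pseudocount of 0.1 RPKM, equal summed RPKM, centring on the median gene and no filter on low values left the counts of members past 2-fold and past a log2 ratio of 0.32 as given. With a pseudocount of 0.1 RPKM, 332 genes of all were at least 2-fold lower and 68 higher, in place of 195 and 23; the smaller pseudocount enlarges ratios of low genes. It also moved the log2 ratio of Piwil4 to 0.33, that of Ago1 to 0.32, which lies just under the threshold before rounding, and that of Ago2 to 0.23, in place of 0.08, 0.16 and 0.14. The log2 value of Piwil1 is set by the pseudocount, since 1 library is at 0, and gives no size. Across these settings the log2 ratio of Piwil2 ran from 0.46 to 0.48 and that of Dgcr8 from -0.0034 to 0.0172. The list medians moved by less than 0.1. Taking the mean over clade members in place of the sum gave PIWI to AGO ratios of 4.78 in Piwil1-/- and 6.22 in Piwil1+/-, and leaving out Piwil1 gave 2.78 in Piwil1+/-. The microRNA share of PIWIL1-bound inserts was 0.00289% on average for exact matches and 0.209% for the first 18 nt. Leaving out miR-468-5p gave 0.000301% for exact matches, and leaving out miR-468-5p and miR-7210-5p gave 0.0151% for the first 18 nt; both were chosen after the data were seen. Piwil4 and Ago1 had the lowest fitted read numbers among the members above 0 in both libraries. Their fold intervals include 1, as do those of Ago3, Ago4, Drosha, Dgcr8 and Dicer1. Because the read numbers are minima, the part of depth in this was not tested.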
